A study of Mus musculus with 18 samples.

Results

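Acyl-CoA thioesterases cut the thioester bond of a fatty acyl-CoA and release the free fatty acid and coenzyme A. They thereby set how much activated fatty acid each compartment of the cell holds, and in liver several of them are known targets of PPARalpha, a nuclear receptor that binds fatty acids. The type I enzymes (Acot1 to Acot5 here) share an alpha/beta hydrolase fold and are encoded by neighbouring genes, while the type II enzymes (Acot7, Acot8, Acot9, Acot12 and Acot13 here) share a hotdog fold and lie apart in the genome. The 10 genes were taken by symbol, with all of their 13 non-control probes out of 39429 on the array; Acot3, Acot5 and Acot8 had 2 probes each. By their known location, 3 of the products are cytosolic (Acot1, Acot7, Acot12), 3 mitochondrial (Acot2, Acot9, Acot13) and 4 peroxisomal (Acot3, Acot4, Acot5, Acot8). These places are background knowledge and were not measured.

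Liver RNA of 18 male C57BL/6J mice, an inbred strain, was hybridised to 1-colour Agilent arrays, 1 liver to an array. From 8 weeks of age until 13 weeks of age, 8 mice ate a high-fat diet made with linseed oil and 10 mice one made with palm oil. Both diets took 51.1% of their energy from lipid, and no group on a low-fat diet is analysed here, so the values compare 2 high-fat diets. Linseed fat was 66.7% polyunsaturated (49.7% alpha-linolenic acid, the plant n-3 fatty acid) and 9.7% saturated; palm fat was 8.8% polyunsaturated and 55.6% saturated. The comparison asks how the choice of fat shifts thioesterase transcripts in each compartment. Levels are log2 signals relative to the 75th percentile of the same array. Differences are linseed minus palm levels with their SE, both estimated with limma, and p-values are adjusted over 15951 genes (Benjamini-Hochberg). A level depends on its probe, so levels are compared between mice and never between genes. In whole liver, a change in the share of a cell type and a change in RNA per cell cannot be told apart.

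The 5 type I genes lie side by side on the plus strand of chromosome 12, and their 7 probes span 82.9 kb of the mm9 build. The probe of Acot2 maps to chr12:85334071-85334130, that of Acot1 to chr12:85358561-85358620 and that of Acot4 to chr12:85384821-85384880. The brighter and dimmer probes of Acot3 map to chr12:85400452-85400511 and chr12:85399468-85399527, and those of Acot5 to chr12:85416634-85416693 and chr12:85416893-85416951. The exon or untranslated region under each probe was not looked up, since no annotation of that build was used here. Because these genes are close relatives, signal could be shared between their probes. The first 30 of the 60 bases of each probe are shown to let the probes be compared.
Acot2: ggggaaacctcatatatattatcacaatgt
Acot1: tctatggaaactggagctatccaagaaaag
Acot4: tgctggatgacatgaaattcatgtttaggg
Acot3, brighter probe: gtgtacacacacacatatacacacaagcac
Acot3, dimmer probe: tcatcaatggctctatatccaacatcggcg
Acot5, brighter probe: ggagaagccccagattgtctgctaccccaa
Acot5, dimmer probe: cgctggtcctgttcccctgagaattaggat
Over the full 60 bases of all 13 probes, the longest identical run between probes of different members was 9 bases. Hybridisation to a transcript of another member was not tested.

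Of the 9 members that could be tested, 4 rose on linseed oil (Acot2, Acot3, Acot4 and Acot5) and 0 fell, where 0.57% of all genes tested were called higher. The called members were all type I and, in this fit, mitochondrial or peroxisomal. Among cytosolic members 0 of 3 passed, among mitochondrial members 1 of 2, and among peroxisomal members 3 of 4. A difference above 0 was seen in 9 of 9 members (48.7% of all genes) and an unadjusted p under 0.05 in 6 of 9 (10.2% of all genes in either direction): all 5 type I members and Acot12. With marked spots kept, the unadjusted p of Acot12 was 0.07 (limma). By fold family the split was 4 of 5 type I members against 0 of 4 type II members. The median difference was 1.30 over the type I members (0.75 to 1.91) and 0.14 over the type II members (0.04 to 0.23), beside -0.0038 over all genes tested. Compartment medians were 0.18 in the cytosol, 0.60 in mitochondria and 1.07 in peroxisomes, and each compartment held members of both families. These values depended on the processing. With normexp background correction Acot1 was called (1.38, limma adjusted p = 0.027) and Acot2 was not (0.15, adjusted p = 0.999), so that 1 of 3 cytosolic and 0 of 2 mitochondrial members passed and the mitochondrial and peroxisomal medians were 0.07 and 0.69. The mitochondrial median is over Acot2 and Acot9 alone; with marked spots kept, which adds Acot13, it was 0.04. These counts and medians are descriptions, and no test was made over a compartment or a family.

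**Figure D1:**
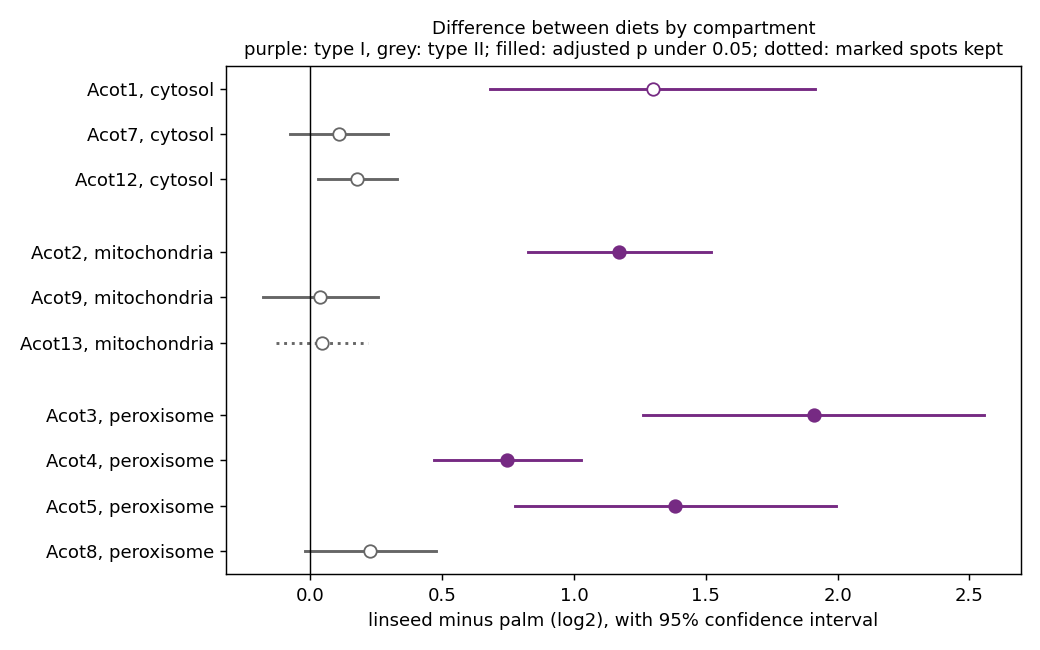
Linseed minus palm difference (log2) of each thioesterase gene with its 95% confidence interval, grouped by compartment; purple marks type I and grey type II members, and filled points have an adjusted p under 0.05. In each compartment the type I members (0.75 to 1.91) lie to the right of the type II members (0.04 to 0.23); Acot13, dotted, is shown with marked spots kept.

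Among the peroxisomal members, Acot3, a type I enzyme of long-chain acyl-CoAs, showed the largest difference. Its levels ran from 1.39 to 3.56 (median 2.09) on the 8 linseed arrays and from -1.08 to 1.36 (median 0.27) on the 10 palm arrays. The lowest linseed liver lay just above the highest palm liver, so the groups did not overlap, which held for 0.157% of all genes tested in that direction. The means were 2.22 ± 0.72 (SD, n = 8) and 0.31 ± 0.68 (SD, n = 10), and linseed was 3.76-fold higher, with a 95% confidence interval of 2.40-fold to 5.89-fold (limma difference 1.91 ± 0.31, adjusted p = 0.0044). The dimmer probe of Acot3 was read separately: it gave 2.12 ± 0.38, or 4.33-fold (limma, adjusted p = 0.0118 over all probes, 0.589% of which were called higher). The pair of probes ranked the livers alike, with a correlation of 0.97 over the 18 arrays and 0.93 after diet means were subtracted.

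Acot4, whose product in mouse peroxisomes prefers succinyl-CoA and glutaryl-CoA, had the smallest difference of the type I members. Its levels ran from 0.70 to 1.73 (median 1.22) on linseed and from -0.04 to 0.84 (median 0.49) on palm oil. Of the 8 linseed livers, 7 lay above the highest palm liver, and the one below it was linseed replicate 3. The difference was 0.75 ± 0.13, or 1.68-fold (limma, adjusted p = 0.0095).

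Acot5, a peroxisomal enzyme of medium-chain acyl-CoAs, ran from -0.74 to 1.04 (median 0.20) on linseed and from -2.50 to -0.19 (median -1.15) on palm oil. Here 6 of 8 linseed livers lay above the highest palm liver, palm replicate 9. The difference was 1.38 ± 0.29, or 2.61-fold (limma, adjusted p = 0.032). It was 0.77 (adjusted p = 0.034) with normexp background correction. Its call was lost when linseed replicate 1, 2, 5 or 7, or palm replicate 1 or 6, was left out, with adjusted p from 0.0185 to 0.0734 and differences from 1.24 to 1.51 over all 18 such fits. The dimmer probe of Acot5 could be read only in a fit of all 39429 probes with no filter and marked spots kept, where it differed by 0.21 ± 0.23 (limma, adjusted p = 1.00). The brighter probe differed by 1.38 ± 0.30 in that fit, and was not called there either (adjusted p = 0.0835). The dimmer probe was well above background on only 3 linseed and 4 palm arrays, and its correlation with the brighter probe was 0.35.

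Acot8, the type II member of the peroxisome, which hydrolyses a broad range of acyl-CoAs and bile acid CoA esters, ran from 2.32 to 3.15 (median 2.78) on linseed and from 2.13 to 2.91 (median 2.61) on palm oil. The groups overlapped over most of their range. The difference of 0.23 ± 0.12 did not pass (limma, adjusted p = 0.547), and its 95% confidence interval of -0.02 to 0.48 lay below the estimates of the other peroxisomal members. Its dimmer probe gave 0.27 ± 0.13 (limma, adjusted p = 0.509), with a correlation of 0.97 between the probes. The probes map to chr2:164618269-164618328 and chr2:164620497-164620556 on the minus strand.

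In mitochondria, Acot2, the type I enzyme of the matrix that acts on long-chain acyl-CoAs, had the smallest adjusted p of the family. Its levels ran from -3.41 to -2.34 (median -2.72) on linseed and from -4.38 to -3.49 (median -4.10) on palm oil. The groups did not overlap, which held for 0.157% of all genes tested in that direction. The lowest linseed liver, replicate 6, lay just above the highest palm liver, and its spot was not well above background. The difference was 1.17 ± 0.17, or 2.25-fold (limma, adjusted p = 0.0019). The signal was dim, at 6.74 to 38.0 intensity units, and well above background on 7 of 8 linseed and 6 of 10 palm arrays. With normexp background correction, which adds an offset of 50 units, the difference was 0.15 ± 0.10 (adjusted p = 0.999).

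Acot9, a type II mitochondrial enzyme, ran from -1.66 to -1.09 (median -1.40) on linseed and from -1.88 to -1.13 (median -1.43) on palm oil, with nearly full overlap. Its difference was 0.04 ± 0.10 (95% confidence interval -0.18 to 0.26, limma adjusted p = 0.945), and the sign turned in some settings. Its probe maps to chrX:151731124-151731183.

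Acot13, a small type II enzyme found at mitochondria, could not be tested, because the image software had marked its spot on 4 linseed and 7 palm arrays. With marked spots kept its levels ran from 5.34 to 5.60 (median 5.45) on linseed and from 5.14 to 5.75 (median 5.37) on palm oil, so the linseed livers lay inside the palm range. The difference on those values was 0.04 ± 0.08 (95% confidence interval -0.13 to 0.22, limma adjusted p = 0.908). Its probe maps to chr13:24909838-24909897 on the minus strand.

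In the cytosol, Acot1, the type I counterpart of Acot2, came close to the threshold without passing it. On the 7 linseed arrays with an unmarked spot its levels ran from 4.11 to 5.28 (median 4.77), and on the 7 such palm arrays from 2.50 to 4.18 (median 3.61). Of those linseed livers 6 lay above the highest palm liver, and the one below it was linseed replicate 6. The difference was 1.30 ± 0.29, or 2.46-fold, with a 95% confidence interval of 0.68 to 1.91 on the log2 scale (limma, adjusted p = 0.0532). By p it ranked 133 of 15951 genes, where 121 passed. The 4 marked spots read 5.59 in linseed replicate 7 and 4.68, 4.62 and 3.70 in palm replicates 8, 9 and 10. With those spots kept, 2 of the palm livers lay above 3 of the linseed livers, and the difference was 1.13 ± 0.30 (limma, adjusted p = 0.0858).

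Acot7, a type II enzyme best known from brain, ran from 2.17 to 2.82 (median 2.52) on linseed and from 2.17 to 2.62 (median 2.38) on palm oil. It differed by 0.11 ± 0.09 (95% confidence interval -0.08 to 0.29, limma adjusted p = 0.744), and only linseed replicates 3 and 4 lay above the highest palm liver. Acot12, a liver enzyme that hydrolyses acetyl-CoA, ran from 3.02 to 3.41 (median 3.26) on linseed and, on 9 palm arrays, from 2.89 to 3.23 (median 3.04). It differed by 0.18 ± 0.07, or 1.13-fold, which did not pass (limma, adjusted p = 0.381), although its 95% confidence interval of 0.03 to 0.33 lay above 0. With the marked spot of palm replicate 9 kept, Acot12 differed by 0.15 ± 0.08, and the interval of -0.01 to 0.30 included 0. The probes of Acot7 and Acot12 map to chr4:151645802-151645861 and chr13:91925586-91925645.

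**Figure D2:**
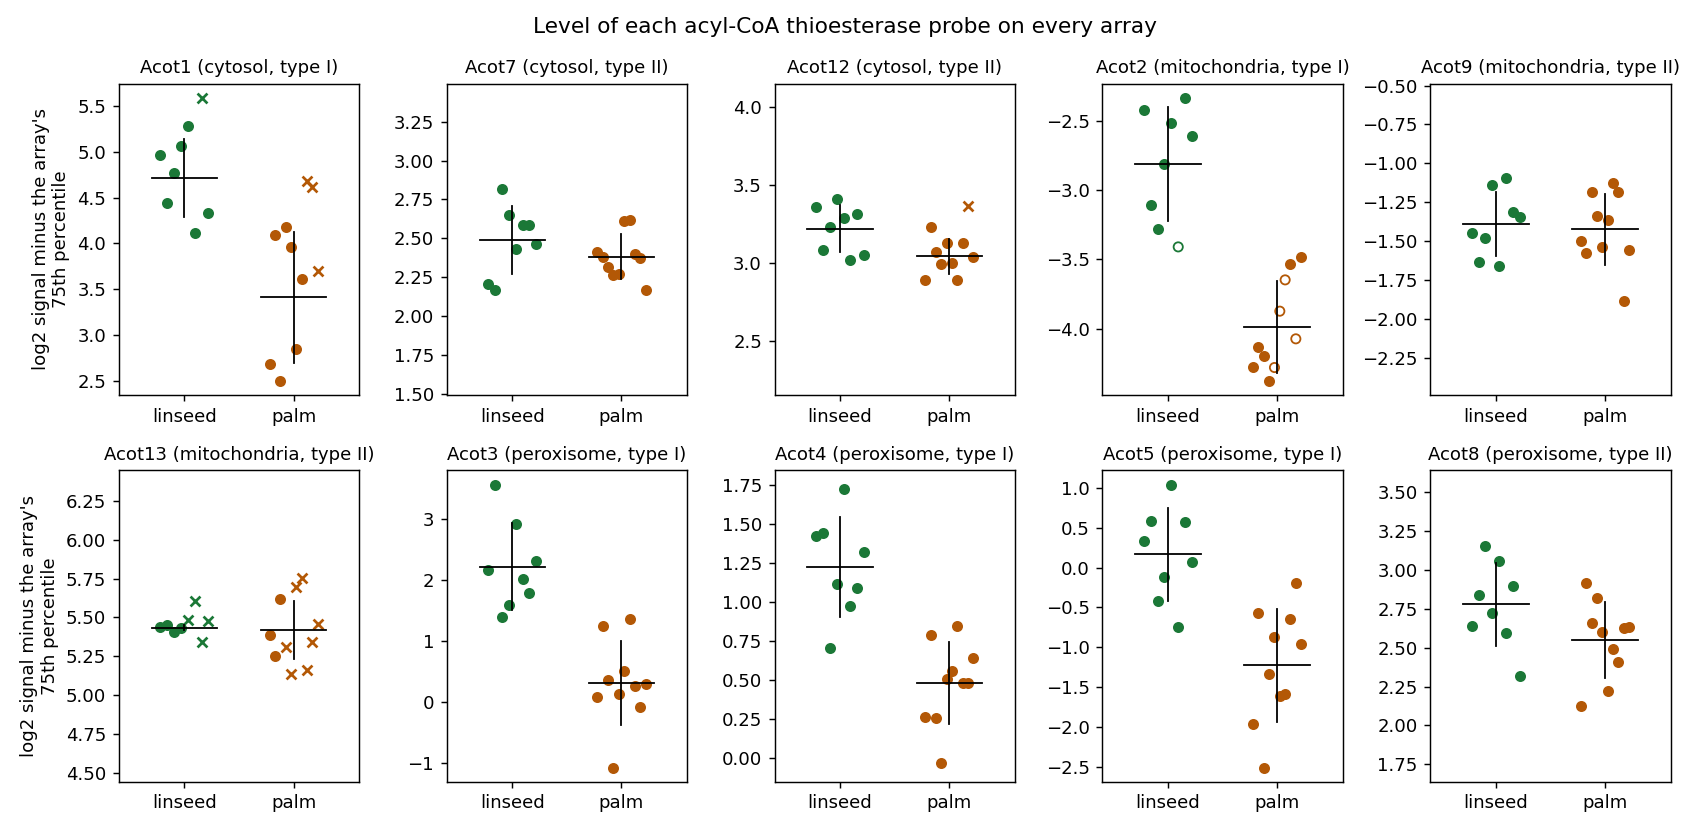
Level of each member (log2 signal minus the 75th percentile of the array) on each linseed and palm array, with the mean and SD of unmarked spots in black; open points were not well above background and crosses are marked spots. For Acot2 (-3.41 to -2.34 against -4.38 to -3.49) and Acot3 (1.39 to 3.56 against -1.08 to 1.36) the groups do not overlap, while those of Acot7, Acot8 and Acot9 overlap over most of their range.

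Whether one member changed more than another was tested on the difference between the 2 genes within each array, with exact two-sided permutation tests over 9 pairs. In each compartment the type I member that was compared exceeded its type II partners. Acot3 differed from Acot8 in the peroxisome by 1.68 ± 0.36 (adjusted p = 0.000823). Acot2 differed from Acot9 in mitochondria by 1.14 ± 0.21 (adjusted p = 0.000411), and by 0.16 ± 0.09 (adjusted p = 0.102) with normexp. In the cytosol Acot1 differed from Acot7 by 1.23 ± 0.35 (adjusted p = 0.0105) and from Acot12 by 1.12 ± 0.28 (adjusted p = 0.00262), over the 14 arrays where Acot1 was unmarked.

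Between compartments, type I members could not be separated as clearly with the main processing. Acot1 and Acot2 differed by 0.07 ± 0.33 (exact permutation p = 0.832, adjusted p = 0.832), with a spread too wide to say that they changed alike. With normexp that pair differed by 1.28 ± 0.35 (adjusted p = 0.00874). Acot1 against Acot3 gave -0.61 ± 0.55 (exact permutation p = 0.303, adjusted p = 0.341). Acot2 changed less than Acot3 by 0.74 ± 0.35 before adjustment (exact permutation p = 0.0379) but not after it (adjusted p = 0.0568), and the adjusted p was 0.0448 when diets were permuted within slides. The adjusted p of that pair was 0.0331 with the mean of probes, and with normexp Acot2 against Acot3 gave -1.36 ± 0.28 (adjusted p = 0.000617). Within the peroxisome, Acot3 changed more than Acot4, by 1.16 ± 0.23 (adjusted p = 0.000411). Acot3 against Acot5 gave 0.53 ± 0.37 (exact permutation p = 0.204, adjusted p = 0.262), and 0.74 ± 0.27 with normexp (adjusted p = 0.0200). Signals of Acot5 (21.8 to 280 units) are low enough for the same offset to shrink its difference. In all, 5 of 9 pairs passed with the main processing.

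The arrays were taken to come from 5 slides, each with both diets. Linseed replicate 5 and palm replicates 5 and 6 had no barcode in their headers and were assumed to share slide 1. Each difference was also taken within slides, with at most 2 livers per diet on a slide. The called members were higher on linseed oil on all 5 slides: Acot2 by 0.72 to 1.56, Acot3 by 1.09 to 2.60, Acot4 by 0.37 to 1.20 and Acot5 by 0.64 to 2.27. Of 15194 genes measured on all slides, 6.99% were higher on linseed oil on each. The smallest differences of Acot2, Acot3 and Acot4 were those of slide 4, and slide 5 gave the smallest for Acot5. The largest difference of each of these genes was that of the assumed slide 1. Acot1 was higher on the 4 slides where it could be compared, by 0.50 to 1.88, with 0.50 again on slide 4; with marked spots kept it differed by 0.18 on slide 5. Acot12 was higher on all 5 slides by 0.01 to 0.29, but by -0.15 on slide 5 with its marked spot kept. Acot7, Acot8 and Acot9 were higher on 3, 4 and 1 of the 5 slides. When slide entered limma as a fixed block, the adjusted p was 0.00417 for both Acot3 and Acot4, 0.00356 for Acot2, 0.0251 for Acot5 and 0.0982 for Acot1 (limma); with slide as a random block Acot1 passed (adjusted p = 0.0364).

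**Figure D3:**
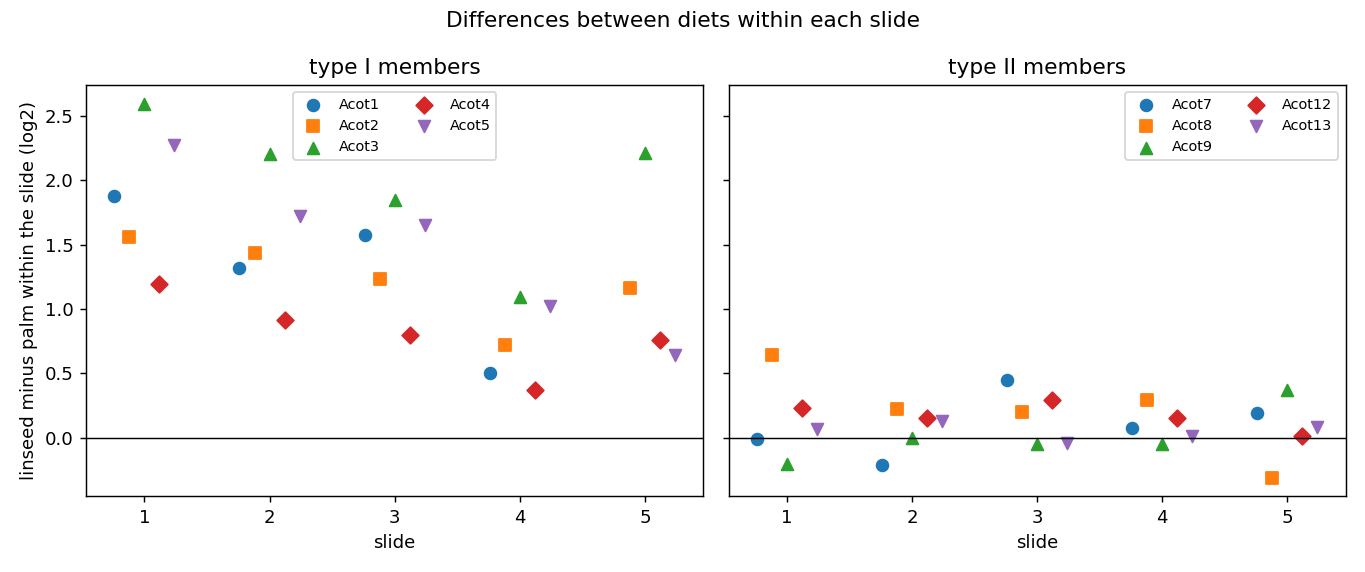
Linseed minus palm difference (log2) within each of the 5 slides for type I members (left) and type II members (right), 1 symbol per gene. Slide 1 holds the arrays without a barcode, assumed to be 1 slide. Acot13 is drawn from values with marked spots kept and Acot1 has no palm value on slide 5. The type I differences are all above 0 (0.37 to 2.60), while the type II differences lie on both sides of 0.

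Depth and cell make-up were set beside these differences. The arrays had 17258 to 22445 probes well above background, fewest on slide 1, and 238 to 1703 marked spots, most on slides 4 and 5. On the 11 arrays of slides 1, 2 and 3 the differences were 1.36 for Acot2, 2.12 for Acot3, 0.90 for Acot4 and 1.76 for Acot5, but with fewer livers only Acot2 passed (limma, adjusted p = 0.00753; the others 0.107 to 0.137). On slides 2 to 5 only Acot2 passed as well (adjusted p = 0.0235; Acot3 1.81, adjusted p = 0.0524). All 8 hepatocyte markers were above background on all arrays. Of 26 tested markers of 7 other cell types limma called 0, and 1 had an unadjusted p under 0.05; no muscle marker passed the filter on dim probes. The summed level of the 6 adipocyte markers ran from 1.88 to 5.28 on linseed and from 0.46 to 3.69 on palm oil, 1.33 higher on average on linseed oil, with leptin (Lep) not above background on any array; 2 of the 6 could be tested. The part of adipose RNA in the thioesterase differences was not tested. The summed level of 4 muscle markers was 5.43 in linseed replicate 6 and at most 0.23 in the other livers. Without that liver the differences were 1.26 for Acot2, 1.94 for Acot3, 0.78 for Acot4 and 1.51 for Acot5, all still called, and Acot1 also passed (1.40, limma adjusted p = 0.0472).

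The livers of one diet varied as well, and the type I members did not all vary together. After diet and slide means were subtracted, the correlation was 0.78 between Acot3 and Acot4 over 18 arrays and 0.80 between Acot1 and Acot5 over 14 arrays, but -0.03 between Acot3 and Acot5 and -0.04 between Acot1 and Acot3. The median over the 10 type I pairs was 0.31, from -0.04 to 0.80. It was 0.12 over 20 pairs of a type I with a type II member, from -0.64 to 0.68. Over 6 type II pairs it was -0.13, from -0.75 to 0.41. All points of such a correlation share an array, its labelling and its scaling, so the values are descriptions. Within diets, 1 of 20 correlations passed adjustment: Acot3 with Acot4 on palm oil (r = 0.89, permutation p = 0.00087, adjusted p = 0.0174, n = 10). Its rank correlation did not (rho = 0.77, permutation p = 0.0123, adjusted p = 0.0769), and r was 0.65 without the 2 livers farthest from the Acot3 median. Leaving out such livers also narrows the range of values, so the lower r cannot show on which livers the relation rests. On linseed oil the same pair had r = 0.78 (exact permutation p = 0.022, adjusted p = 0.11, n = 8), and 0.80 without the 2 livers farthest from the Acot3 median.

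**Figure D4:**
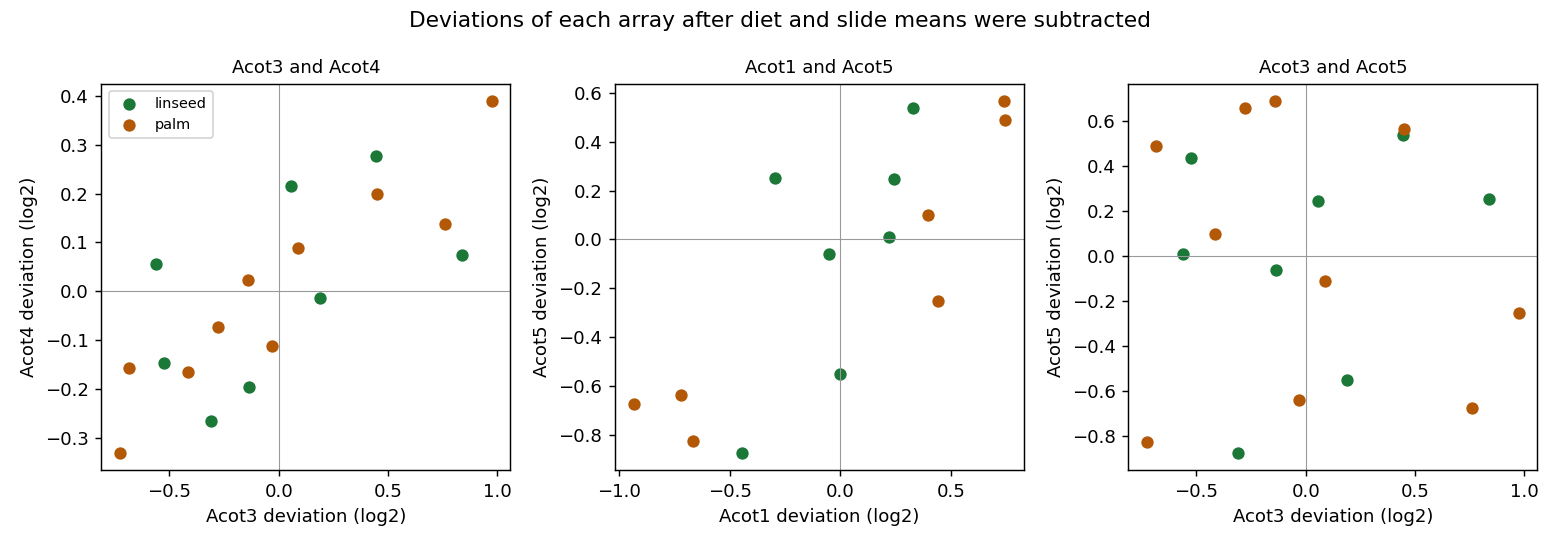
Deviation of each array (log2) after diet and slide means were subtracted, for 3 pairs of type I genes; each point is a liver, green for linseed and brown for palm oil. Acot3 with Acot4 (r = 0.78) and Acot1 with Acot5 (r = 0.80) lie along a diagonal, and Acot3 with Acot5 (r = -0.03) does not.

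By the same measure, the genes of the array most like each called member were also listed, out of 14715 compared. For Acot3 they were Prg4 (r = 0.88), Lpgat1 (0.86) and Elk4 (0.85), with Acot4 at rank 12. For Acot4 they were C530030K21Rik (0.82), Serpina3i (0.82) and Lpgat1 (0.81), with Acot3 at rank 7. For Acot5 they were Scrib (0.95), Eci3, a peroxisomal enoyl-CoA isomerase (0.95), and Ube2g2 (0.94). For Acot2 they were the transcript ENSMUST00000018810 (0.91), Emc1 (0.88) and Rapgef2 (0.85). None of these listed non-member genes differed between the diets after adjustment.

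The type I genes were also set among their neighbours, listed after their values had been seen. In the order of the GRCm38.p6 annotation, Riox1 precedes Acot2, which is followed by Acot1, Acot4, Acot3, Acot5 and Acot6, and then by Dnal1. Of 9 flanking genes 4 could be tested and limma called 0 (0.759% of all genes in either direction). At an unadjusted p under 0.05, 3 were higher, Acot6 among them (10.2% of all genes in either direction). Acot6, a further type I thioesterase, differed by 0.50 ± 0.17 (limma, adjusted p = 0.249), Riox1 by 0.22 ± 0.11 (adjusted p = 0.489), Numb by 0.18 ± 0.07 (adjusted p = 0.354) and Mideas by 0.10 ± 0.13 (adjusted p = 0.853).

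The start sites of the neighbouring type I members were compared for the half-site AGGTCA, a motif that PPARalpha and other nuclear receptors bind. The sequences are from RefSeq (GRCm38.p6, plus strand, the first start listed for each gene) and run from 90 bases before the start to 30 bases from it onward, with AGGTCA on either strand in capitals. They lie at chr12:83987771-83987890 (Acot2), chr12:84009412-84009531 (Acot1), chr12:84038289-84038408 (Acot4), chr12:84052054-84052173 (Acot3) and chr12:84069234-84069353 (Acot5).
Acot2: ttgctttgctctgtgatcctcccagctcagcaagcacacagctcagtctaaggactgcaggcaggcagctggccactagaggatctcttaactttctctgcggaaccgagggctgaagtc
Acot1: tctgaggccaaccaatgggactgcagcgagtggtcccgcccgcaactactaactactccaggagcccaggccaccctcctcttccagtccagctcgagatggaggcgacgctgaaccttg
Acot4: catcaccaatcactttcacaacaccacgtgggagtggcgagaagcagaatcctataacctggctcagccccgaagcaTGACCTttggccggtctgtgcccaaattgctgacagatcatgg
Acot3: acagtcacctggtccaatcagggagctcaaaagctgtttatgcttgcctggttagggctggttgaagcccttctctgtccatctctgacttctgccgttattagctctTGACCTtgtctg
Acot5: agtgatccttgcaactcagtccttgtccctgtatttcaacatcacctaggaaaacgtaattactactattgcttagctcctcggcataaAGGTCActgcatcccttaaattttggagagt
The half-site was found in the windows of Acot4, Acot3 and Acot5 and in neither of the others. In the full listed promoters of 300 bases it occurred in 3 of 5 type I members and 1 of 4 listed type II members (Acot12), beside 16.3% of all 32851 promoters. Its pair of copies 1 base apart, AGGTCANAGGTCA, was in 0 of these members and in 0.0396% of all promoters. The looser AGGNCANAGGNCA, which includes the former, was likewise in 0 members and in 0.381% of all promoters. A match describes letters only, and no binding was measured.

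Other genes of acyl-CoA handling were read from lists by role. Of 51 genes 43 were tested, 3 rose and 0 fell, with a median difference of 0.05; of all genes tested 0.57% were called higher and 10.2% had an unadjusted p under 0.05 in either direction. Among 8 other thioesterases limma called 0 (median -0.01), with 1 higher and 1 lower at an unadjusted p under 0.05. The smallest p belonged to Acot11, a type II enzyme with a lipid-binding domain, at -0.47 ± 0.15 (limma, adjusted p = 0.199), followed by Acot6. Among 13 acyl-CoA synthetases and fatty acid transport proteins, which make acyl-CoA from free fatty acids, 0 passed (median 0.01), with 2 higher and 1 lower before adjustment. Acsm5 differed by 0.23 ± 0.07 (adjusted p = 0.2) and Acsl1, the main long-chain synthetase of liver, by 0.29 ± 0.09 (adjusted p = 0.241). Among 5 acyl-CoA binding proteins 0 passed (median 0.05) and 0 before adjustment, with Acbd4 at 0.20 ± 0.10 (adjusted p = 0.524) and Dbi, the acyl-CoA binding protein itself, at 0.13 ± 0.09 (adjusted p = 0.689). Among 4 diphosphatases that cleave coenzyme A and its esters 0 passed (median 0.11) and 1 was higher before adjustment, with Nudt12 at 0.30 ± 0.09 (adjusted p = 0.199) and Nudt7 of the peroxisome at -0.31 ± 0.18 (adjusted p = 0.602).

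The 3 genes that rose were on the lists of carnitine transfer and peroxisomal oxidation, which take acyl-CoA up or break it down. Of 6 carnitine genes 5 were higher at an unadjusted p under 0.05 and 1 rose after adjustment (median 0.50): Slc25a20, the carrier of acylcarnitines into mitochondria, by 0.45 ± 0.09 (limma, adjusted p = 0.0246). Cpt1b, the muscle form of the transferase at the outer membrane, differed by 0.66 ± 0.17 (adjusted p = 0.0967). Cpt1a, another form of that transferase, differed by -0.02 ± 0.10 (limma, adjusted p = 0.972). The part of muscle RNA in the Cpt1b difference was not tested. Of 7 peroxisomal genes 2 rose (median 0.32): Ehhadh, the bifunctional enzyme, and Acaa1b, a thiolase, at 0.83 ± 0.14 (adjusted p = 0.00446) and 0.76 ± 0.11 (adjusted p = 0.00438). The remaining 8 listed genes could not be tested. Of these, with marked spots kept, Hsd17b4, a further bifunctional enzyme of the peroxisome, rose by 0.30 ± 0.07 (limma, adjusted p = 0.0375, in a fit that called 0.683% of genes higher). Crot, Acaa1a, Scp2 and Acox2 were read in the same fit and did not pass (limma, adjusted p from 0.162 to 0.603).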

How the data were processed

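The deposited intensity values are background-subtracted signals from Agilent Feature Extraction 9.5.3.1, per the file headers; version 9.5 and limma are named in the submitters' processing notes. The authors' value table holds log2 values of unstated scaling. It lists 9 of the 10 genes, all but Acot2, and served as an alternative.

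Signals were scaled to each array's 75th percentile over non-control probes and taken to log2. Marked spots (non-uniform or population outliers) were then left out and saturated spots kept. A probe was kept if well above background on at least 8 arrays with values on at least 6 arrays per group, and a gene was read from its brightest kept probe. Diets, taken from sample titles, were compared in R 4.3.3 with limma 3.58.1, without covariates, two-sided, at an adjusted p under 0.05. Of 15951 genes 121 were called (0.759%), 91 higher and 30 lower, and 1621 (10.2%) had an unadjusted p under 0.05. The same fit was run afterwards on simulated arrays with the means and spread of these data. Their noise was independent between arrays and genes, without slide effects, so they cannot show how slides affect the fit. Pairs and correlations used permutation tests written for this purpose with numpy 2.4.6, with ranks from SciPy 1.17.1, adjusted over the pairs or correlations.

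Named genes are all members, the called and the 2 smallest-p genes of each other list, and the 3 genes most correlated with each called member. The flanking genes, Cpt1a, Hsd17b4 and the other listed genes read only with marked spots kept were chosen after values were seen. The members and lists were chosen with earlier results of these data known. Probe names were updated through RefSeq GRCm38.p6. Arrays of slide 1 had no barcode in the headers and were taken as 1 slide. Alternatives were background correction, scaling, filters, marked spots, probe choice, slide and replicate blocks, eBayes options, array weights, the authors' table and leaving out each array; those restricted to some slides, that with marked spots kept and slide blocked, and that on every unfiltered probe were chosen after seeing the data. The 18 arrays and the background signal set the precision.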

Additional observations from a re-analysis of the deposited data

How the results depend on the processing

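Over 37 other settings the count of called members, 4 in the main comparison, was 5 in 5 settings, 4 in 20, 3 in 9, 2 in 1 and 1 in 2. The called genes were the same 4 in 18 settings; a count of 4 with Acot1 in place of Acot2 was given by normexp and by requiring signal above background on all arrays, where Acot2 was not tested. A cytosolic member (Acot1) was called in 7 settings and a mitochondrial one (Acot2) in 34. It was 3 to 5 when single arrays were left out, 2 with the percentile taken over unmarked spots, 1 on slides 1, 2 and 3 only, and 1 on slides 2 to 5 only (fewer arrays). Of its alternatives, Acot3 passed in 35 of 37, Acot2 in 34 of 35, Acot4 in 33 of 37, Acot5 in 27 of 37 and Acot1 in 7 of 37. Acot4 had an adjusted p of 0.1 over unmarked spots and 0.076 with a replicate block; Acot5 had 0.0914 over unmarked spots and 0.0907 without the filter on dim probes. In the authors' values Acot3, Acot4, Acot5 and Acot1 differed by 1.67, 0.65, 0.99 and 1.11. Acot1 was not called there (limma, adjusted p = 0.133), and Acot2 is not listed in those values. Of the tested pairs, 5 of 9 passed. With normexp, whose offset shrinks the differences of dim members, it was 7 of 9. It was 6 of 9 within slides and with the mean of probes, and 6 of 10 with marked spots kept. The sign turned for Acot7 within slide 1 (-0.0077) and slide 2 (-0.21), for Acot8 within slide 5 (-0.31), and for Acot9 within slides 1 to 4 (-0.21, -0.0024, -0.047 and -0.045), with normexp (-0.00902), over unmarked spots (-0.00299), with a replicate block (-0.037), on slides 1, 2 and 3 only (-0.054) and when single arrays were left out (-0.014 to 0.075). The cause was not tested.

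Deviations of same-numbered livers correlated at 0.28, 0.34, 0.39, 0.5, 0.25, 0.0012, 0.094 and -0.24 for numbers 1 to 8. All pairs but those numbered 6 and 8 (0.0012 and -0.24) shared a slide, so the numbers partly follow the slides; since not every pair exceeded 0.1, the livers were not treated as paired. With a replicate block 18 genes were called against 121, and 3 members (Acot2, Acot3 and Acot5). Acot2 and the dimmer probes of Acot3 and Acot5 lie near background, which limits their values.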
